A study of Mus musculus with 14 samples.

Results

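The Cyp2a and Cyp2b cytochrome P450 genes, together with Por, were described in mouse livers with and without Cul3 in hepatocytes, on 2 diets. The members were the rows of the deposited expression table named Cyp2a4, Cyp2a5, Cyp2a12, Cyp2a22, Cyp2b9, Cyp2b10, Cyp2b13 and Por, which are 8 of the 43548 genes in the table. Of these, Cyp2a4, Cyp2a5, Cyp2a12, Cyp2a22 and Por reached 1 FPKM (fragments scaled by transcript length and by library size) in at least 3 libraries and were tested. Cyp2b9, Cyp2b10 and Cyp2b13 did not reach it and are given by their values.

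All mice were C57BL/6 animals carrying the floxed Cul3 allele, so the allele itself is shared by every group. KO mice received AAV-TBG-Cre, an adeno-associated virus in which the hepatocyte promoter TBG drives Cre recombinase, and WT mice received AAV-TBG-Null, which has no Cre. CD and WD are the labels of the 2 diets, a control and a Western diet, fed for 13 weeks before the injection and for 5 weeks after it. The groups were KO on CD (3 libraries), WT on CD (3 libraries), KO on WD (4 libraries) and WT on WD (4 libraries), each of whole liver RNA read by 3' tags. Only hepatocytes are targeted by the promoter, and the other cells of the liver keep the gene. The labels do not tie a library to a separate animal, so every p-value measures only the spread between libraries, which may be technical.

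Cytochrome P450 enzymes are haem proteins of the endoplasmic reticulum that oxidise drugs, toxins and steroids, and in liver they sit mainly in hepatocytes. Each takes its electrons from NADPH through cytochrome P450 oxidoreductase, the product of Por. Cyp2a5 oxidises coumarin and nicotine, its near copy Cyp2a4 hydroxylates testosterone, Cyp2a12 hydroxylates bile acids and steroids, and Cyp2b10 is the classical gene induced by phenobarbital through the nuclear receptor CAR. In mouse liver Cyp2a4, Cyp2b9 and Cyp2b13 are known as female-biased genes. Cul3 encodes cullin 3, a scaffold of ubiquitin ligases, among them the one that uses KEAP1 to mark the transcription factor NRF2 for degradation, and Cyp2a5 is a known NRF2 target.

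The 7 P450 genes lie in 1 cluster on chromosome 7 (mm10 coordinates, GENCODE M21). Cyp2b10 (25897620 to 25926624, plus strand), Cyp2b13 (26061497 to 26096197, plus) and Cyp2b9 (26173411 to 26210661, plus) come first. Cyp2a4 (26307169 to 26315088, plus), Cyp2a5 (26835305 to 26843548, plus), Cyp2a22 (26931631 to 26939384, minus) and Cyp2a12 (27029081 to 27037375, plus) follow. Por lies on chromosome 5 (135670033 to 135735326, plus). All are protein-coding.

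The Cyp2a genes form 2 pairs of near copies, and this bears on every value below, since a read from one copy can be counted for the other. The promoter windows of the 4 genes are printed because they show both the likeness within the pairs and the few bases that part them. Each runs from 250 bases before to 50 bases after the RefSeq start (RefSeq, build GRCm38.p6), is written 5' to 3' on the gene's own strand, and has in capitals the bases that differ from the other member of its pair, or are not aligned with it inside the alignment. The windows are Cyp2a4 at chr7:26306942-26307241 (plus), Cyp2a5 at chr7:26835089-26835388 (plus), Cyp2a22 at chr7:26939337-26939636 (minus) and Cyp2a12 at chr7:27028840-27029139 (plus).
Cyp2a4: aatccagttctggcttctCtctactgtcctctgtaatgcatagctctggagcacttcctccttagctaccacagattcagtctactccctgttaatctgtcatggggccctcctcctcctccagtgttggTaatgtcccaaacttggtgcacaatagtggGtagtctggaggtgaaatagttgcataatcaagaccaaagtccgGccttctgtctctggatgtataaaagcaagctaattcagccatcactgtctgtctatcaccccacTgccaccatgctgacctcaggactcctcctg
Cyp2a5: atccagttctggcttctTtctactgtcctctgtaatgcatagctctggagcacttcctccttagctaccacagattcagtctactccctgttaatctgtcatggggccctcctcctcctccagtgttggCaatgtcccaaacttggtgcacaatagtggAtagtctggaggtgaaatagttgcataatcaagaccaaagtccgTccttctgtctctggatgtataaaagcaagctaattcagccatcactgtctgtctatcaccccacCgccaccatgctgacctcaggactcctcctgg
Cyp2a22: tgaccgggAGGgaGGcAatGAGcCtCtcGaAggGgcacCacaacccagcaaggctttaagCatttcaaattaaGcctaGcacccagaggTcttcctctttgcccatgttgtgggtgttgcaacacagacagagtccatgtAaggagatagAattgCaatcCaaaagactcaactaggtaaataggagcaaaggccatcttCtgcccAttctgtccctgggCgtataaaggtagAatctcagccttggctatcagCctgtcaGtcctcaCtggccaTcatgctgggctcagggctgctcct
Cyp2a12: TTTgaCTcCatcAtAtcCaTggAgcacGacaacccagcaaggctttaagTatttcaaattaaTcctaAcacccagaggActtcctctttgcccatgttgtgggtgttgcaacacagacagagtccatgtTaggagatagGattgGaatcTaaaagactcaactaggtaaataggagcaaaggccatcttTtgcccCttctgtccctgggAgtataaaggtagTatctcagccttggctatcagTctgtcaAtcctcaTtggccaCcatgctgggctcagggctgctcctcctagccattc

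With gaps inside the alignment counted as differences, the Cyp2a4 and Cyp2a5 windows were 98.3% identical, with 5 mismatches in 299 bases. The Cyp2a12 and Cyp2a22 windows were 89.4% identical, with 28 mismatches and 3 gapped bases, and windows of different pairs were 58.1 to 59.9% identical. All 4 hold the motif TATAAA on the gene's strand, starting 28 (Cyp2a4), 29 (Cyp2a5), 28 (Cyp2a22) and 39 (Cyp2a12) bases before the RefSeq start. On the same strand TATAAA was present in 8.32% of the 32851 promoter windows of the RefSeq table, and it was in none of the windows of Cyp2b9, Cyp2b10, Cyp2b13 and Por. The letters TGACNNNGC, the core of the antioxidant response element that NRF2 binds, searched on both strands, were in 0 of the 8 member windows and in 12.4% of all windows. The letters TTCNNNGAA, the site of STAT5, which reads the same on both strands, were in 0 of the 8 and in 8.30% of all windows. These counts say only that the letters are not in these 300 bases.

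The transcripts of each pair are closely alike as well. The transcripts of Cyp2a4 and Cyp2a5 were 98.3% identical over their aligned bases. Unlike for the promoter windows, gaps are left out of all transcript identities. Of all 50-base windows in the last 500 bases of Cyp2a4, where 3' tags fall, 37% were also found in the Cyp2a5 transcript, and 12.4% of those of Cyp2a5 were found in Cyp2a4. Cyp2a12 and Cyp2a22 were 96.6% identical, with 16.4% of the end windows of Cyp2a12 found in Cyp2a22 and 5.76% the other way. Between the pairs identity was 76 to 77% and no end window was shared. The assignment of reads within each pair is therefore uncertain, and the counting of reads with several matches is not stated in the sources used.

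The libraries hold roughly 3617000 to 11031000 reads each, estimated from the FPKM value of a single read, and 8600 to 9970 genes reached 1 FPKM. The libraries were split by the pattern of single-read values into 2 sets, a number set beforehand. The labels do not give the meaning of the sets. For each pair of libraries, the measure was the highest percentage of sparsely detected genes with the same ratio of values. It was 3.01 to 11.8% within set 1, 2.02 to 18.1% within set 2 and 1.4 to 3.82% between sets. These ranges overlap, so the split is not sharp. Set 1 holds WT on CD 1, 3 and 4, KO on WD 1, 2 and 4, and WT on WD 3 and 4. Set 2 holds KO on CD 1, 2 and 3, KO on WD 3, and WT on WD 1 and 2. On CD the genotypes and the sets coincide, so within that diet they cannot be told apart. The calls below are also given from a fit that includes the set. In that fit the set term is estimated from the WD libraries alone and carried over to CD. Its CD values thus assume that the set acts alike on both diets. They neither clear a CD call of the set nor tie a lost call to it. Cul3 itself measured 11.3 to 18.3 FPKM in KO and 23.9 to 29.5 FPKM in WT on CD, and 18.5 to 26.6 FPKM in KO and 7.46 to 25.9 FPKM in WT on WD. Which exons Cre removes is not stated in the sources used, and tags from the 3' end may come from exons that remain, so the Cul3 level is no check of the deletion or of the labels. Albumin (Alb) stood at 1942 to 3858 FPKM in every library.

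Cyp2a5 was the member with the clearest difference between the genotypes. It was higher in KO than in WT livers on both diets, 4.82-fold in mean FPKM on CD and 12.9-fold on WD, and in WT livers it was lower on WD than on CD. On CD it measured 2797, 2988 and 4412 FPKM in the KO libraries, against 529, 919 and 669 FPKM in the WT libraries. On WD it measured 3741, 2583, 1850 and 2746 FPKM in the KO libraries, against 207, 106, 179 and 355 FPKM in the WT libraries. Every KO library stood above every WT library, also across the diets, with 1850 FPKM in the lowest KO library and 919 FPKM in the highest WT library.

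**Figure D1:**
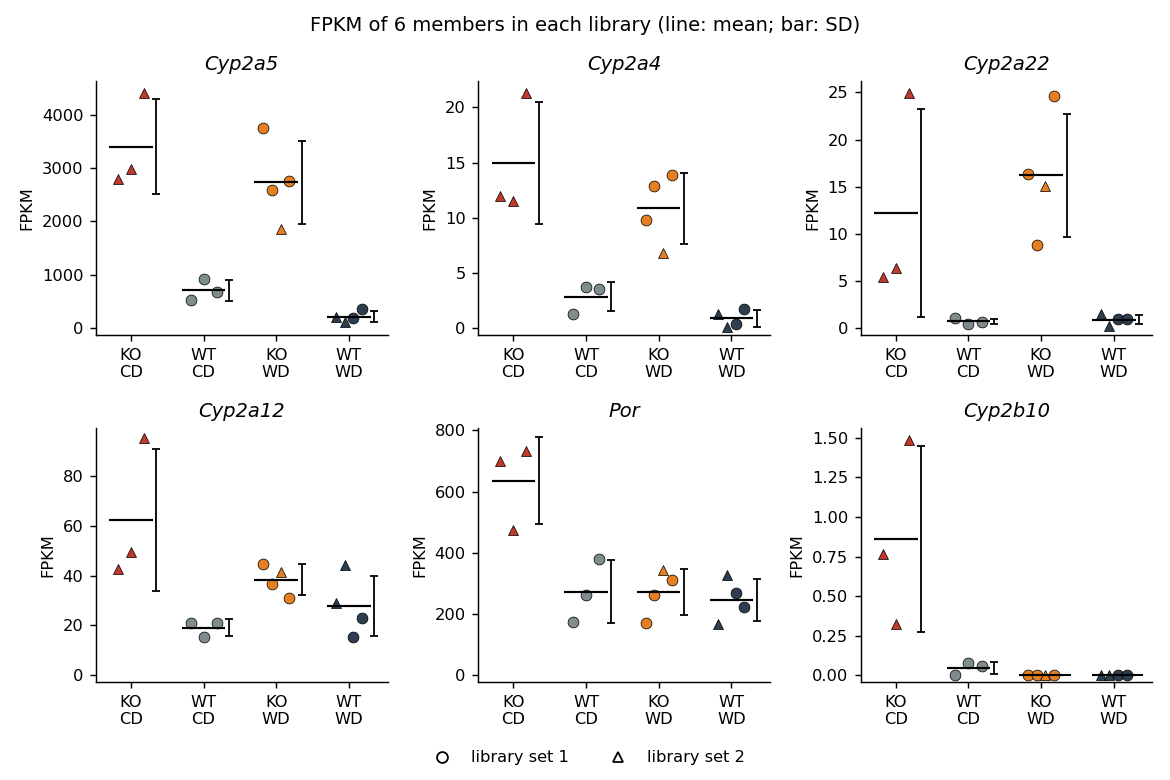
FPKM of 6 members in each library, by group, with circles for library set 1, triangles for set 2, a line at the group mean and a bar of 1 SD. Cyp2a5, Cyp2a4 and Cyp2a22 are higher in all KO libraries than in the WT libraries of the same diet, Por stands apart only in KO on CD, and Cyp2b10 is above 0.1 FPKM only in KO on CD.

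Over the whole series, 15.0% of the 10870 tested genes passed the test for KO against WT on CD, at an adjusted p under 0.05 (11.7% higher in KO). Of the 5 tested members, all 5 were higher in KO. On WD 7.01% of genes passed (6.01% higher in KO), and 3 of the 5 members, Cyp2a4, Cyp2a5 and Cyp2a22, were higher in KO. All 5 would also have been tested on the WT libraries alone, where each reached 1 FPKM in 3 to 7 libraries. In whole liver RNA, more cells that use a gene and more RNA of it per cell cannot be told apart.

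On CD, Cyp2a5 averaged 3399 ± 882 FPKM in KO and 705.9 ± 197 FPKM in WT (SD, n = 3 each), and its log2 fold change, here and throughout on the log2(FPKM + 1) scale, was 2.27 ± 0.38 (SE; limma adjusted p = 0.00277). On WD it averaged 2730 ± 778 FPKM in KO and 212 ± 105 FPKM in WT (SD, n = 4 each), with a log2 fold change of 3.77 ± 0.33 (limma adjusted p = 1.7e-05). The rise of Cyp2a5 was called under every setting listed in the closing section on both diets, except on WD in library set 2 alone, where 1 KO library met 2 WT libraries. Once the library set was included, the CD value was 3.00 (limma adjusted p = 0.00445) and the WD value 3.58 (adjusted p = 1.27e-05). Within set 1 alone the WD value was 3.56 (limma adjusted p = 0.0175, 3 KO and 2 WT libraries), and within set 2 alone it was 3.63 (adjusted p = 0.453).

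Cyp2a4, the testosterone hydroxylase, followed Cyp2a5 at a far lower listed level. On CD it measured 11.9, 11.5 and 21.3 FPKM in the KO libraries, against 1.32, 3.68 and 3.56 FPKM in the WT libraries. On WD it measured 9.76, 12.9, 6.84 and 13.8 FPKM in the KO libraries, against 1.31, 0.135, 0.379 and 1.76 FPKM in the WT libraries. The groups did not overlap on either diet. On CD it rose by 2.07 on the log2 scale (SE 0.39; limma adjusted p = 0.00624), and on WD by 2.69 (SE 0.34; adjusted p = 0.000345). With a pseudocount of 0.1 in place of 1, which changes low values most, these were 2.42 and 3.84. Including the set gave a CD value of 2.53 (limma adjusted p = 0.0309) and a WD value of 2.58 (adjusted p = 0.000632).

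Because the pair can exchange reads, Cyp2a4 was also taken as a percentage of Cyp2a5 within each library. The ratio was 0.386 to 0.484% in KO and 0.249 to 0.532% in WT on CD, and 0.261 to 0.504% in KO and 0.127 to 0.63% in WT on WD. The ranges overlap on both diets and are widest in WT on WD, where Cyp2a4 is at most 1.76 FPKM. There Cyp2a4 rests on about 13.1, 0.899, 6.12 and 28.4 reads. Over the 14 libraries the log2 values of the pair had a Pearson r of 0.976, a description of libraries that also share depth, set and group. What part of the Cyp2a4 value comes from Cyp2a5 reads was not tested.

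**Figure D2:**
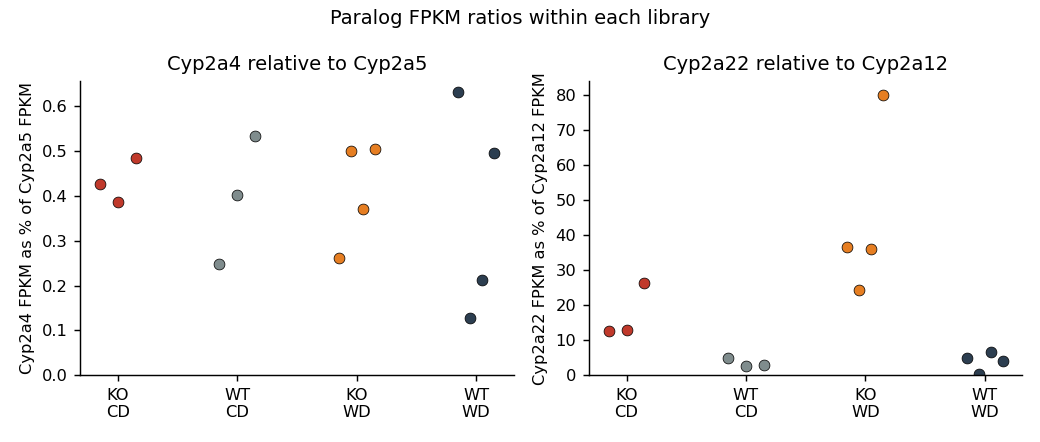
FPKM of Cyp2a4 as a percentage of Cyp2a5 and of Cyp2a22 as a percentage of Cyp2a12 in each library, by group, each point 1 library. The first ratio overlaps between KO and WT on both diets, and the second is 12.6 to 26.2% in KO and 2.78 to 4.93% in WT on CD, and 24.3 to 79.9% in KO and 0.52 to 6.55% in WT on WD.

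Cyp2a22, the neighbour and near copy of Cyp2a12, was near or below 1 FPKM in WT livers and well above it in KO livers. On CD it measured 5.36, 6.41 and 25.0 FPKM in the KO libraries, against 1.03, 0.425 and 0.643 FPKM in the WT libraries. On WD it measured 16.3, 8.86, 15.0 and 24.6 FPKM in the KO libraries, against 1.46, 0.229, 1.01 and 0.917 FPKM in the WT libraries. The groups did not overlap on either diet, and 1 KO library on CD stood far above the other two. The ratio of mean FPKM in KO to WT was 17.5 on CD, or 8.43 without KO replicate 3, and 17.9 on WD. On CD it rose by 2.67 on the log2 scale (SE 0.47; limma adjusted p = 0.00413), and on WD 3.14 (SE 0.41; adjusted p = 0.000444). The CD value was 2.03 without KO replicate 3 (limma adjusted p = 0.011). With a pseudocount of 0.1 in place of 1 the values were 3.66 on CD and 4.13 on WD. With the set as a term the WD call held, at 3.11 (limma adjusted p = 0.000957), while the CD value of 2.78 did not pass (adjusted p = 0.0713).

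Cyp2a12, the bile acid and steroid hydroxylase, moved less than its copy. On CD it measured 42.7, 49.4 and 95.2 FPKM in the KO libraries, against 20.8, 15.3 and 21.1 FPKM in the WT libraries. On WD it measured 44.7, 36.4, 41.6 and 30.8 FPKM in the KO libraries, against 28.9, 44.1, 15.4 and 22.8 FPKM in the WT libraries. The groups were apart on CD and overlapped on WD, where 1 WT library lay among the highest. On CD it rose by 1.58 on the log2 scale (SE 0.35; limma adjusted p = 0.0118), and the WD value was 0.53 (95% interval -0.12 to 1.19; adjusted p = 0.304). The CD call was lost with the set as a term, at 1.0 (limma adjusted p = 0.305), and without KO replicate 3 (adjusted p = 0.0549) or WT replicate 3 (adjusted p = 0.0508).

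Within the second pair the ratio separated the genotypes, which the ratio of the first pair did not. Cyp2a22 was 12.6 to 26.2% of Cyp2a12 in KO and 2.78 to 4.93% in WT on CD. On WD it was 24.3 to 79.9% in KO and 0.52 to 6.55% in WT. Every KO library had a higher ratio than every WT library, and the KO libraries on WD reached beyond those on CD. The WT ratios rest on few reads of Cyp2a22, about 14.9, 5.62 and 10.5 on CD. On WD these were about 15.3, 1.59, 17 and 15.4 reads. Of the Cyp2a FPKM sum, Cyp2a5 was 96.9 to 97.9% in KO and 95.8 to 97.9% in WT on CD, and 96.7 to 98.1% in KO and 70.5 to 93.3% in WT on WD. The WT libraries on WD were thus the ones in which the other Cyp2a genes held the most of the sum.

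Por was higher in KO on CD and did not pass the test on WD. On CD it measured 700.8, 473.6 and 732 FPKM in the KO libraries, against 175.6, 263.4 and 381.4 FPKM in the WT libraries. On WD it measured 171.5, 261, 342.7 and 310.1 FPKM in the KO libraries, against 167.9, 329.1, 269 and 224.2 FPKM in the WT libraries. KO on CD stood alone, and the other 3 groups overlapped. Por averaged 635 ± 141 FPKM in KO and 273.5 ± 103 FPKM in WT on CD (SD, n = 3 each), and the log2 fold change of 1.26 (SE 0.33) passed (limma adjusted p = 0.0249). On WD the log2 fold change was 0.13 (95% interval -0.49 to 0.75; limma adjusted p = 0.819), and its sign turned under quantile normalization (-0.082) and median centring (-0.16).

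The CD result for Por rests on few libraries. With the library set as a term it was 1.07 (limma adjusted p = 0.310), with no filter on low values the adjusted p was 0.0526, and under quantile normalization the value was 1.06 (adjusted p = 0.0558). It also missed the threshold without KO on CD replicate 1 (limma adjusted p = 0.0701) or 3 (adjusted p = 0.0929) and without WT on CD replicate 1 (adjusted p = 0.0896) or 3 (adjusted p = 0.0713). The KO libraries on CD are all of set 2. The set 2 libraries on WD measured 342.7 FPKM in KO and 167.9 and 329.1 FPKM in WT, below every KO library on CD. These libraries differ in diet as well, and the part of the set in the CD result was not tested.

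**Figure D3:**
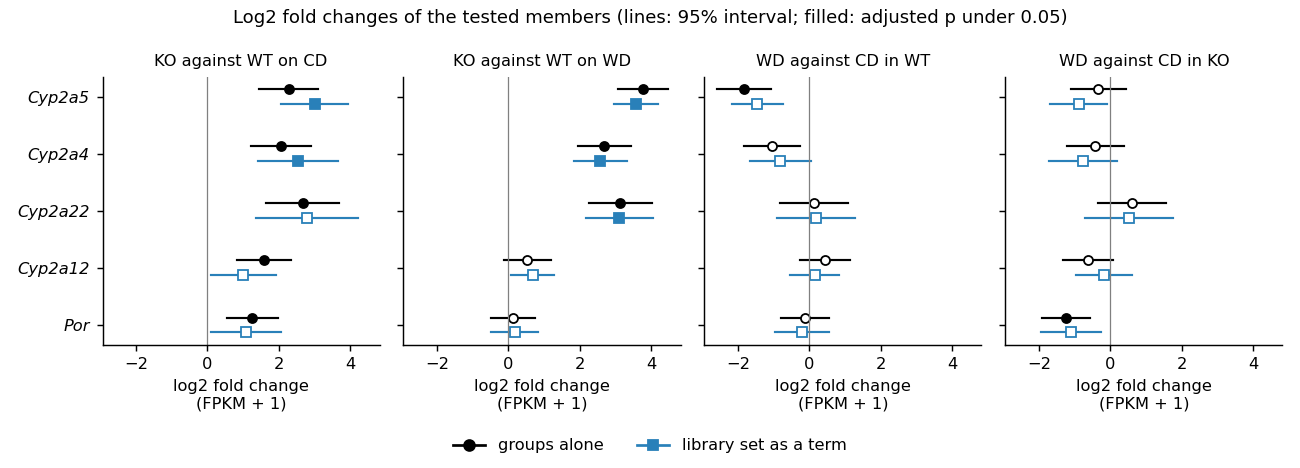
Log2 fold changes (log2(FPKM + 1) scale) of the 5 tested members in 4 comparisons, with 95% intervals; circles are from the fit on groups alone, squares from the fit with the library set as a term, and filled symbols passed at a limma adjusted p under 0.05. Cyp2a5 and Cyp2a4 passed in both fits for KO against WT on both diets and Cyp2a22 on WD, while Cyp2a12 and Por passed on CD in the first fit only.

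The Cyp2b genes, of which Cyp2b10 is the one known for its induction through CAR, were at the edge of detection. Cyp2b10 measured 0.765, 0.326 and 1.49 FPKM in KO on CD, against 0, 0.0747 and 0.0570 FPKM in WT on CD, and it was listed at 0 in all 8 libraries on WD. At the rough value of a single read these are about 9.05, 3.03 and 9.23 reads in the KO libraries, against about 0, 1.06 and 1.01 reads in the WT libraries. The groups on CD did not overlap. In the fit with no filter on low values its log2 difference was 0.79 for KO against WT on CD and -0.85 for WD against CD in KO. Both differences rest on these few reads. No p-value is given, since the 8 libraries at 0 lower the spread that this fit pools over the groups. The set 2 libraries outside KO on CD, which are KO on WD 3 and WT on WD 1 and 2, list it at 0. They are all of the other diet, and the part of the set in the CD values was not tested.

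Cyp2b9 was listed at 0 in KO on CD, WT on CD and KO on WD, and measured 0.544, 0, 0.0569 and 0.508 FPKM in WT on WD. In reads this is about 5.98, 0, 1.01 and 9.01 in the WT libraries on WD. Cyp2b13 was listed at 0 in all libraries but WT on WD replicate 4, where it measured 0.0565 FPKM, about 1 read. Without a filter the log2 difference of Cyp2b9 for KO against WT on WD was -0.32 and did not pass. The groups listed at 0 lower the pooled spread here too. The transcripts of Cyp2b9 and Cyp2b13 were 91.9% identical, but they shared no end window. Cyp2b10 and Cyp2b13 shared 7.54% of their end windows each way. Whether the few reads of Cyp2b9 and Cyp2b13 come from another gene was not tested.

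Between diets, 1 tested member passed in each genotype. In WT livers 1.30% of the tested genes passed for WD against CD (0.635% lower on WD), and 1 of the 5 members, Cyp2a5, was lower on WD. It averaged 212 ± 105 FPKM on WD (SD, n = 4) and 705.9 ± 197 FPKM on CD (SD, n = 3), and no WT library on WD reached the lowest WT library on CD. It fell by 1.82 on the log2 scale (SE 0.35; limma adjusted p = 0.0253). It did not pass with the set as a term (-1.46, limma adjusted p = 0.0729), without a filter on low values (adjusted p = 0.0596) or under quantile normalization (-1.66, adjusted p = 0.0512). It was also lost without WT on CD replicate 3 (limma adjusted p = 0.144) or 4 (adjusted p = 0.0845) and without WT on WD replicate 1 (adjusted p = 0.0614) or 3 (adjusted p = 0.0529).

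In KO livers 6.38% of genes passed for WD against CD (2.55% lower on WD), and 1 of the 5 members, Por, was lower on WD. It averaged 271 ± 74.6 FPKM on WD (SD, n = 4) and 635 ± 141 FPKM on CD (SD, n = 3), and the groups did not overlap. It fell by 1.25 on the log2 scale (SE 0.31; limma adjusted p = 0.0377), and by 1.11 with the set as a term (adjusted p = 0.254). Leaving out 1 library ended this call for 6 libraries: KO on WD 1, 2 or 4, KO on CD 1 or 3, or WT on CD 3 (limma adjusted p = 0.0524 to 0.122). Cyp2a5 in KO livers differed between diets by -0.33 (95% interval -1.09 to 0.43; limma adjusted p = 0.569). The remaining member values for WD against CD were -1.05 (Cyp2a4), 0.44 (Cyp2a12), 0.14 (Cyp2a22) and -0.12 (Por) in WT, and -0.42 (Cyp2a4), -0.61 (Cyp2a12) and 0.60 (Cyp2a22) in KO, none of which passed.

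Whether the effect of KO differed between the diets was tested as the difference of the 2 fold changes, for which 0.340% of all genes passed and none of the 5 members did. At an unadjusted p under 0.05 there were 3 members, Cyp2a5, Cyp2a12 and Por. The difference was 1.49 for Cyp2a5 (95% interval 0.42 to 2.57; limma adjusted p = 0.0928), -1.05 for Cyp2a12 (-2.04 to -0.06; adjusted p = 0.165) and -1.13 for Por (-2.07 to -0.18; adjusted p = 0.126). It was 0.63 for Cyp2a4 (limma adjusted p = 0.460) and 0.47 for Cyp2a22 (adjusted p = 0.664). With the set as a term the value was 0.58 for Cyp2a5 (limma adjusted p = 0.935), -0.32 for Cyp2a12 (adjusted p = 0.968) and -0.90 for Por (adjusted p = 0.895). A difference of the KO effect between the diets was thus not shown for any tested member.

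By group means, from low to high, Cyp2a5 and Cyp2a4 ran WT on WD, WT on CD, KO on WD, KO on CD. The KO groups of Cyp2a5 did not differ beyond their spread, and the diet pairs of Cyp2a4 did not pass, although its interval for WD against CD in WT, -1.84 to -0.25, lay below 0 (limma adjusted p = 0.192). Cyp2a12 ran WT on CD, WT on WD, KO on WD, KO on CD, with only the genotypes on CD apart by the test. Cyp2a22 ran WT on CD, WT on WD, KO on CD, KO on WD, where neighbours of the same genotype did not differ beyond their spread. Por ran WT on WD, KO on WD, WT on CD, KO on CD, where the first 3 overlapped.

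The other genes of the chromosome 7 cluster were read in the same libraries. Cyp2f2, which lies beyond Cyp2a12 and codes for a P450 that oxidises naphthalene, measured 25.2, 15.0 and 38.5 FPKM in KO and 9.88, 8.57 and 6.79 FPKM in WT on CD. Its log2 fold change there was 1.45 (limma adjusted p = 0.0364), and 0.43 with the set as a term (adjusted p = 0.707). On WD it measured 15.1, 17.0, 27.6 and 18.7 FPKM in KO and 10.5, 17.9, 5.20 and 4.95 FPKM in WT, a log2 fold change of 1.08 (limma adjusted p = 0.0960), and 1.34 with the set as a term (adjusted p = 0.0101). Cyp2g1, between Cyp2b19 and Cyp2a5, was not tested and measured 3.09, 2.37 and 0.643 FPKM in KO and 0.0669, 0.0732 and 0.178 FPKM in WT on CD, groups that do not overlap. The WD values were 0.293, 0.422, 0.810 and 0.171 FPKM in KO and 0.276, 0, 0.115 and 0 FPKM in WT, which overlap. Cyp2b19, Cyp2b23 and Cyp2s1 were at most 0.113 FPKM in any library, and Cyp2t4 was listed at 0 in all of them.

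**Figure D4:**
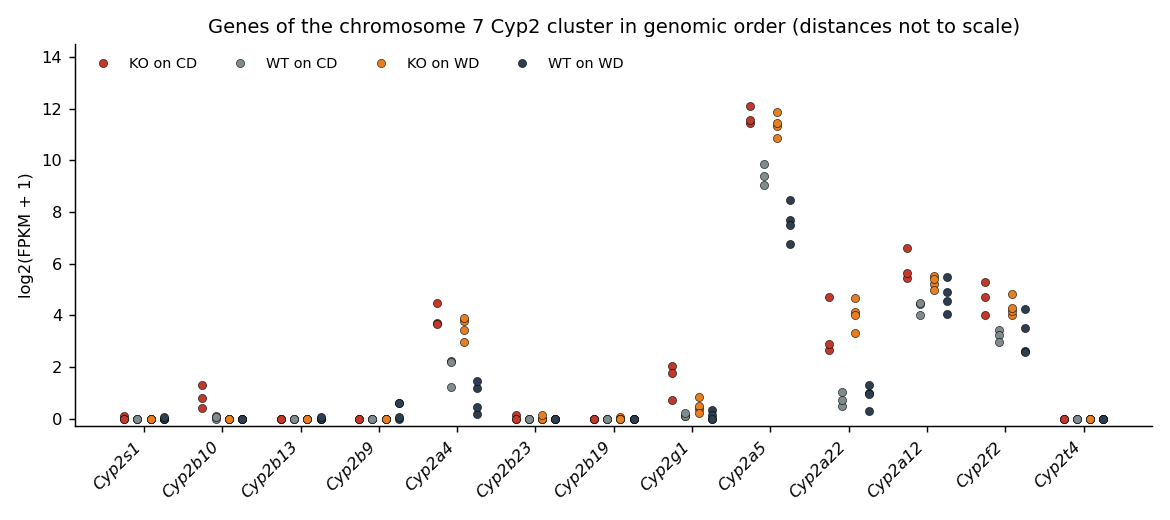
Log2(FPKM + 1) of the genes of the Cyp2 cluster on chromosome 7 in genomic order, not to scale, with each point 1 library coloured by group. Cyp2a4, Cyp2a5, Cyp2a22, Cyp2a12 and Cyp2f2 are detected in KO and WT. Between Cyp2a4 and Cyp2a5 lie Cyp2b23 and Cyp2b19, at most 0.113 FPKM, and Cyp2g1, 0.643 to 3.09 FPKM in KO and 0.0669 to 0.178 FPKM in WT on CD.

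The genes whose values were most like each member over the 14 libraries were found by Pearson r of log2(FPKM + 1), as a description, since libraries share depth, set and group. For Cyp2a5 they were Gsta2 (0.965), Gsta1 (0.963) and Abcc3 (0.951), and for Cyp2a4 Gsta1 (0.969), Abcc3 (0.95) and Gstm3 (0.947). Gsta1, Gsta2 and Gstm3 code for glutathione S-transferases and Abcc3 for an export pump of conjugates. For Cyp2a22 they were Hsd17b13 (0.974), a lipid droplet enzyme, Cdkn1c (0.948) and Ddit4l (0.946), and for Cyp2a12 Abcc2 (0.952), Rrbp1 (0.938) and Topors (0.936). For Por they were Slc25a51 (0.912), the mitochondrial NAD carrier, Wdr43 (0.897) and Pnpla2 (0.896), the adipose triglyceride lipase. Among the members themselves, Cyp2a22 had an r of 0.857 with Cyp2a4, 0.845 with Cyp2a5 and 0.692 with its own copy Cyp2a12, and Por had 0.334 to 0.565 with the Cyp2a genes.

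Cyp2b10 and, in part, Cyp2a5 and Por are targets of the nuclear receptors CAR (Nr1i3) and PXR (Nr1i2), so 25 other targets of these receptors were examined, of which 24 were tested. On CD 12 of the 24 rose and 1 fell in KO, with a median log2 fold change of 0.71 beside 0.18 for all tested genes. On WD 5 rose and none fell in KO, with a median of 0.45 beside 0.23 for the whole table. Of all tested genes, 11.7% (CD) and 6.01% (WD) were called higher in KO. Once the set was included, the counts were 2 higher on CD (Gsta1 and Cyp2c55) and 4 higher on WD (Gsta1, Abcc3, Cyp2c54 and Ugt2b35), with none lower. Of all 10870 genes, 102 were then higher on CD and 730 on WD. Cyp2c55 reached 1 FPKM only in the 3 KO libraries on CD, against at most 0.598 FPKM in WT on CD. It thus entered the test only through the group where it is high, and its CD calls are no independent support.

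The glutathione transferase gene Gsta1 led the targets on both diets, rising by 4.77 on CD (limma adjusted p = 3.7e-05) and by 5.45 on WD (adjusted p = 2.8e-06) on the log2 scale. On CD Cyp2c55 (1.56, limma adjusted p = 0.000979), a fatty acid P450, Gstt1 (1.60, adjusted p = 0.0012), another glutathione transferase, and the export pump Abcc3 (1.44, adjusted p = 0.00201) followed, and Cyp2c50 fell by 0.89 (adjusted p = 0.0232). On WD Abcc3 (1.89, limma adjusted p = 7.16e-05), Cyp2c54 (2.07, adjusted p = 0.0141), the glucuronosyltransferase Ugt2b35 (1.23, adjusted p = 0.0251) and the drug pump Abcb1a (0.96, adjusted p = 0.0391) rose. Several of these are also regulated by NRF2, and the lists do not separate the receptors from it. By mean FPKM on CD, Cyp3a11 (1216 in KO and 4066 in WT) and Cyp2c29 (317.9 in KO and 417.7 in WT) were lower in KO, without overlap. On WD the genotypes overlapped for both, at 226.3 in KO and 548.7 in WT for Cyp3a11 and 147 in KO and 115.4 in WT for Cyp2c29. For WD against CD in WT the list had 2 falls, Slco1a4 (-2.71, limma adjusted p = 0.000417), an organic anion importer, and Cyp2c29 (-1.88, adjusted p = 0.00555). In KO there were 5 falls, with no rise in either genotype. Of all tested genes, 0.635% (WT) and 2.55% (KO) were lower on WD. With the set as a term the list had 2 falls in WT and 3 in KO, beside 42 (WT) and 24 (KO) of all 10870 genes.

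**Figure D5:**
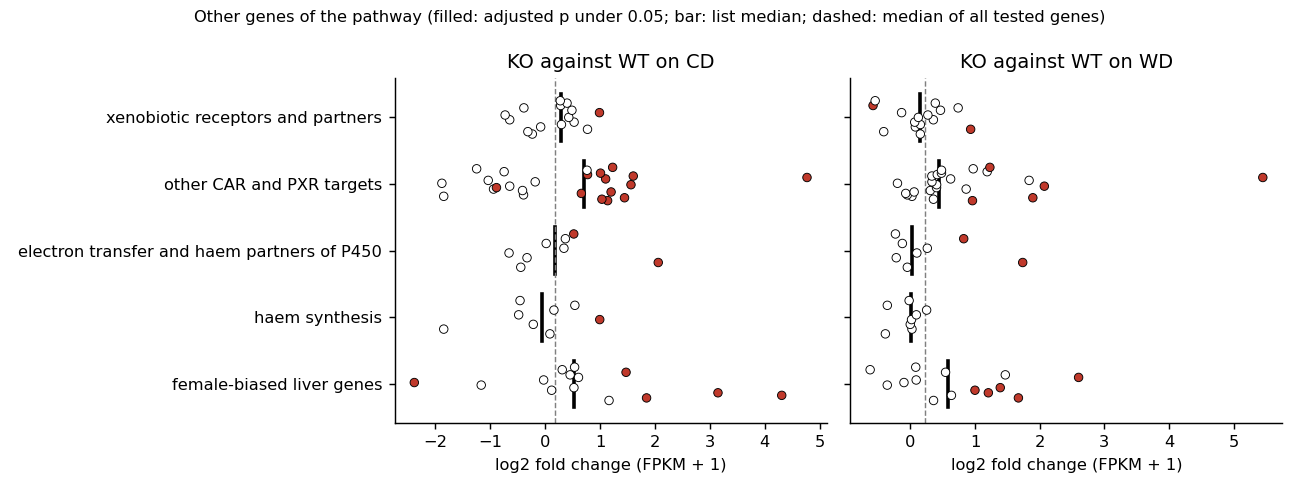
Log2 fold changes (log2(FPKM + 1) scale) of the tested genes of 5 lists, KO against WT on CD and on WD, each point 1 gene, filled where the limma adjusted p was under 0.05, with a bar at the list's median and a dashed line at the median of all tested genes. Of the other CAR and PXR targets 12 rose on CD and 5 on WD, while among the haem synthesis genes 1 rose on CD and none on WD.

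Of the receptors and their partners 15 of 16 were tested, and 1 rose in KO on CD, Nr1i2 itself (0.99, limma adjusted p = 0.0338; with the set as a term adjusted p = 0.330). On WD Dnajc7, a chaperone that holds CAR in the cytoplasm, rose (0.93, limma adjusted p = 0.0405) and Ppara, the fatty acid receptor, fell by 0.57 (adjusted p = 0.0480), and both also passed with the set included (adjusted p = 0.0436 for Dnajc7 and 0.0379 for Ppara). Nr1i3, the gene of CAR, did not pass, at 0.49 on CD (limma adjusted p = 0.0549) or 0.47 on WD (adjusted p = 0.0594). The medians of this list were 0.28 on CD and 0.16 on WD, beside 0.18 (CD) and 0.23 (WD) for all tested genes. Of all tested genes, 11.7% (CD) and 6.01% (WD) were called higher in KO. Called lower were 364 (CD) and 109 (WD) of the 10870. The counts of this and the following lists stand beside these shares, and a single call is not read as a result about a list. Of 8 tested electron transfer and haem partners, 2 rose on each diet, at medians of 0.18 on CD and 0.03 on WD. Blvrb, a biliverdin reductase, rose by 2.06 on CD (limma adjusted p = 4.91e-05) and by 1.74 on WD (adjusted p = 4.92e-05), joined by the haem-binding Pgrmc2 on CD (0.52, adjusted p = 0.0456) and Pgrmc1, a P450 partner, on WD (0.83, adjusted p = 0.00275). Once the set was included, Blvrb passed on both diets and Pgrmc1 on WD, and Pgrmc2 did not pass (limma adjusted p = 0.461). Of the 8 genes of haem synthesis, which supplies the P450 cofactor, Fech alone rose on CD (0.99, limma adjusted p = 0.0243). With the set as a term its adjusted p was 0.565. None passed on WD, at medians of -0.07 on CD and 0.01 on WD. No gene of the list was called lower on CD, although Alas1 averaged 44.5 FPKM in KO and 162.8 FPKM in WT there, without overlap. On WD Alas1 measured 43.5, 142 and 166 FPKM (KO) and 237 and 212 FPKM (WT) in set 1. In set 2 on WD it measured 50.8 FPKM (KO) and 54.9 and 17.0 FPKM (WT). The part of the set in its CD values was not tested.

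Since Cyp2a4, Cyp2b9 and Cyp2b13 are female-biased in mouse liver, 22 other female-biased genes were read, of which 14 were tested, although the sex of the mice is not stated in the labels. In KO 4 rose and 1 fell on CD, and 5 rose and none fell on WD. On CD the rises were Cux2 (4.31), a transcription factor, Cyp17a1 (3.15), the steroid 17-hydroxylase, Atp6v0d2 (1.84), a proton pump subunit, and Nipal1 (1.47), and Cyp3a41b fell by 2.38. On WD they were Cyp4a14 (2.60), a fatty acid hydroxylase, Atp6v0d2 (1.67), Cyp2c69 (1.39), Cyp17a1 (1.21) and Cyp2c40 (1.0). Of 22 tested male-biased genes 13 fell and 2 rose on CD, and 11 fell and 3 rose on WD. Of all 10870 tested genes, 364 were lower and 1269 higher in KO on CD, and 109 were lower and 653 higher on WD. The median log2 fold change was 0.53 (CD) and 0.59 (WD) for the female-biased and -1.67 (CD) and -1.42 (WD) for the male-biased genes, beside 0.18 (CD) and 0.23 (WD) for all genes tested. Once the set was included, 2 female-biased genes rose on CD and 5 on WD, and 8 male-biased genes fell on CD and 12 on WD. Of all 10870 genes, 102 were then higher and 24 lower on CD, and 730 were higher and 112 lower on WD. Cyp2a4 rose in KO on both diets, where the part of Cyp2a5 reads in its value was not tested. Cyp2b9 and Cyp2b13 were listed at 0 in every KO library, and also in every WT library on CD.

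Markers of other liver cells were read in the same libraries, beside 11.7% (CD) and 6.01% (WD) of all genes called higher in KO. Called lower were 364 (CD) and 109 (WD) of the 10870 genes. With the set as a term 102 were higher on CD and 730 on WD. The summed FPKM of 15 Kupffer cell and macrophage markers was 114 to 257 in KO and 60.1 to 93.1 in WT on CD, and 208 to 394 in KO and 96.5 to 193 in WT on WD, and 1 of 11 tested markers rose on CD and 4 on WD, or none on CD and 3 on WD once the set was included. The sum of 10 sinusoidal endothelial markers was 142 to 200 in KO and 88.7 to 145 in WT on CD, and 128 to 239 in KO and 80.3 to 133 in WT on WD, and 2 of 8 tested markers rose on each diet, or none on CD and 1 on WD with the set. The sum of 15 hepatocyte markers was 19920 to 20580 in KO and 17060 to 18790 in WT on CD, and 11470 to 13860 in KO and 14500 to 28220 in WT on WD, of which Serpina1c alone held 4094 to 18870 FPKM over the libraries. Of the 15 markers, 1 rose and 3 fell on CD and 1 fell on WD, at a median log2 fold change near 0 on both diets (-0.0034 on CD and 0.0083 on WD). Stellate cell markers overlapped between genotypes on WD, at 137 to 180 in KO and 126 to 190 in WT, and on CD were 148 to 161 in KO and 111 to 147 in WT. Most of that sum is Dcn, and none of the 7 tested stellate markers passed, at medians of -0.11 on CD and 0.12 on WD. Cholangiocyte and lymphocyte markers summed to at most 23.7, with Cftr and Cd79a at 0 in 13 libraries and Trac at 0 in 14. Of 2 tested cholangiocyte markers Sox9 rose in KO on WD (0.82, limma adjusted p = 0.0357; with the set adjusted p = 0.0515), and neither tested lymphocyte marker passed. The part of these cell types in the member values was not tested.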

How the data were processed

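Liver RNA of 14 libraries was made into stranded QuantSeq 3' FWD libraries, per the labels' protocols. The authors deposited 1 table of FPKM values, with Cufflinks and mm10 named in the submitters' processing notes. For the aligner, the annotation and reads with several matches, the sources used here give nothing. FPKM divides a 3' tag count by transcript length, so listed levels of different genes, and their shares of a sum, do not measure relative amounts. Ratios and shares were read for how they differ between libraries. No total counts were used; the rough read numbers rest on the most frequent single-read value, which held 13.0 to 19.9% of the genes used. The gene Yam1, at the placeholder 999999999 in 8 libraries, was left out.

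From the deposited values, log2(FPKM + 1) of 10870 genes (1 FPKM or more in 3 or more libraries) was fitted by limma 3.58.1 under R 4.3.3. The fit took all 14 libraries, a trend of variance with intensity in eBayes, and 10 residual degrees of freedom. Benjamini-Hochberg adjustment over all of them was used, with a threshold of 0.05. Fold changes on this scale understate those of low genes. Alternatives were a pseudocount of 0.1, no filter, quantile normalization, median centring, the library set as a term, a replicate block, the sets alone and leaving out each library. Named genes were all members, the 3 genes most like each tested member and up to 4 genes of a list with the smallest p, with further genes named to complete a count of 5 or fewer. Promoter windows of all 8 members were matched by symbol in the RefSeq table (GRCm38.p6) and searched with Python 3.11.15 and Biopython 1.88. A cholangiocyte marker is not reported here. The members and gene lists were chosen with earlier results of these data known.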

Additional observations from a re-analysis of the deposited data

How the results depend on the processing

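For the 5 tested members the rises of Cyp2a4 and Cyp2a5 on both diets and of Cyp2a22 on WD passed under every alternative run on all or all but 1 of the libraries and within set 1. Among members called, KO against WT on CD went to 2 of 5 once the set was included, and leaving out 1 library gave 3 to 5. On WD 3 were called, and 0 in library set 2 alone, an alternative chosen after seeing the data in which 0 genes passed in all. The calls between diets, of Cyp2a5 in WT and Por in KO, went to 0 with no filter, once the set was included and with the replicate block, that of Cyp2a5 also under quantile normalization, and leaving out 1 library gave 0 to 1 for each. No member was called for the difference between diets, except Cyp2a5 without WT on WD replicate 4 (1.78, limma adjusted p = 0.0335), so that leaving out 1 library gave 0 to 1.

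Signs turned for values near 0: Por for KO against WT on WD was -0.082 under quantile normalization, -0.16 under median centring, -0.031 in set 1 alone and -0.044 to 0.33 without 1 library. Without 1 library Por for WD against CD in WT was -0.40 to 0.16, and Cyp2a22 was -0.0011 to 0.33. The cause was not tested.

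Over all genes, 1633 passed for KO against WT on CD, 126 with the set as a term, 586 with the replicate block and 591 to 2466 without 1 library. On WD 762 passed, 457 under median centring, 130 in set 1 alone and 442 to 801 without 1 library. For WD against CD in WT 141 passed, 76 with the set, 60 with the block and 40 to 141 without 1 library. In KO 693 passed, 351 with no filter, 38 with the set, 85 with the block and 113 to 1767 without 1 library. For the difference 37 passed, 24 at the pseudocount of 0.1, 21 with no filter, 2 with the set, 4 with the block and 4 to 1058 without 1 library. The share of rises fell to 54.98% and 54.9% on CD under quantile normalization and median centring, against 77.7% as deposited, and to 52.7% and 49.7% on WD, against 85.7%. For WD against CD it was 40.9% in WT under median centring, against 51.1%, and 42.1% and 32.3% in KO, against 60.0%. For the difference it was 52.8% under quantile normalization, against 64.9%. The median gene stood 0.18 (CD) and 0.23 (WD) higher in KO on the log2 scale.

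The replicate numbers did not pair the libraries: deviations of same-numbered libraries had a median r of -0.0301 over 18 pairs, against 0.00946 over 55 other pairs. With the replicate block Cyp2a12 on CD was 1.49 (limma adjusted p = 0.0617), Cyp2a5 for WD against CD in WT -1.70 (adjusted p = 0.0819) and Por in KO -1.32 (adjusted p = 0.0555). Depth limits the Cyp2b genes: 1 read of Cyp2b10 is worth 0.0551 to 0.161 FPKM, so lower levels were not detectable.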
